A study of Saccharomyces cerevisiae with 6 samples.

Results

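The arginine biosynthesis genes of budding yeast, *Saccharomyces cerevisiae*, were described together with the short open reading frame (ORF) in the leader of the *CPA1* mRNA. The 9 members were taken by name, with earlier results of these data known but by no threshold on measured values, from 7122 genes in the expression table: *ARG2*, *ARG5,6*, *ARG8*, *ARG7*, *CPA1*, its leader ORF YOR302W, *ARG3*, *ARG1* and *ARG4*. RNA was sequenced from 3 *ths1-C268A* samples and 3 WT samples, lettered A, B and C in each strain and described by the study as biological replicates. The *ths1-C268A* strain carries a point mutation, made by CRISPR, in the editing site of Ths1, the threonyl-tRNA synthetase, an enzyme that otherwise removes serine wrongly attached to threonine tRNA. Both strains derive from BY4741, a MATa laboratory strain in which *HIS3*, *LEU2*, *MET17* and *URA3* were deleted. Cultures in rich medium (YPD) were in log phase at 30 °C when they were moved to 37 °C, and RNA came from cells collected 2 h later. No culture kept at 30 °C was analysed here, so an effect of the mutation at any temperature and an effect on the response to heat cannot be told apart. By the study's account, Ths1 with this mutation is also less stable at 37 °C, the temperature at which all samples were collected. Effects of lost editing and of less stable enzyme therefore cannot be told apart here. The study addressed this at 30 °C, where it reports the stability of the mutant enzyme as unaffected. There a reporter of *GCN4* expression was still raised by the mutation. That assay does not measure mRNA of the members. In bulk RNA, a change in the mean over cells and a change in the share of cells that express a gene also cannot be told apart.

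Yeast makes arginine from glutamate in a pathway split between mitochondria and cytosol. Inside mitochondria, acetylated intermediates are carried to ornithine by Arg2, the acetylglutamate synthase, by Arg5,6, a precursor protein cleaved into acetylglutamate kinase and acetylglutamyl-phosphate reductase, by Arg8, the acetylornithine aminotransferase, and by Arg7, the ornithine acetyltransferase that recycles the acetyl group. Ornithine leaves through the carrier Ort1. In the cytosol, Arg3 (ornithine carbamoyltransferase) joins it to carbamoyl phosphate, which an enzyme with Cpa1 as a subunit makes from glutamine, and Arg1 (argininosuccinate synthetase) and Arg4 (argininosuccinate lyase) complete arginine. Most genes of the pathway are known targets of Gcn4, the activator of general amino acid control. Several are also repressed when arginine is plentiful by the ArgR/Mcm1 complex, made of Arg80, Arg81, Arg82 and Mcm1. YOR302W encodes the arginine attenuator peptide. When arginine is plentiful this peptide is known to stall the ribosome at the end of the leader ORF, which lowers translation of *CPA1* and exposes the mRNA to nonsense-mediated decay.

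The sites that Gcn4 is known to bind are shown because they are the sequence feature the members share and the choice of members did not use. The 500 bases before each start codon were read from the RefSeq genome (R64), which has the same coordinates as the table for all 9 members, and both strands were searched for TGACTCA. Below, the site is in capitals and each sequence is read along the strand of its gene. That strand of the genome follows in words, so *ARG7* and *ARG4* are read from the reverse strand.
*ARG5,6* (chrV:295177-295203, gene on the forward strand, site 223 bases before the start codon): cttatccgaaTGACTCAgtctacatca
*ARG8* (chrXV:58569-58595, forward, 180 bases before): gctcgctatgTGACTCActtaaagtac
*ARG7* (chrXIII:396515-396541, reverse, 152 bases before): acaggtaggaTGACTCActgcgtaatt
*CPA1* and YOR302W, which share the site (chrXV:882405-882431, forward, 484 bases before *CPA1* and 350 before YOR302W): gaagggtgttTGACTCAtcatcgcatc
*ARG3* (chrX:268475-268501, forward, 314 bases before): ggtcacgtcgTGACTCAtatgctttct
*ARG1* (chrXV:218856-218882, forward, 345 bases before): gattttttagTGACTCAtgtcgcattt
*ARG4* (chrVIII:141565-141591, reverse, 179 bases before): agtagatgaaTGACTCActttttggat
*ARG2*, with the 6-base core GAGTCA only (chrX:306032-306057, forward, 90 bases before): tcttcccatgGAGTCAtaagcacgtt

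Thus 8 of the 9 members had the 7-base site, at 7 distinct positions, against 240 of 6000 windows of the same length (4%) over all genes searched. With the 6-base core, TGACTC or its reverse complement GAGTCA, which every 7-base site contains, the counts were 9 of 9 members and 759 of 6000 windows (12.65%). *ARG2* was the member without the 7-base site, and its change in *ths1-C268A* was also the smallest of the 9, as described with its values. A match in these letters is a description of the window and was not tested for binding.

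Between 16597937 and 19114041 fragments per sample were counted for listed genes. Fragments not counted for a listed gene made up 10.6 to 13.4% of the total in *ths1-C268A* and 18.3 to 18.7% in WT. That total was inferred from the FPKM scale, and where the uncounted fragments lay is not known. The comparison was therefore repeated with equal totals over protein-coding genes, as given below, and what lies behind the gap was not tested. *LEU2*, *MET17* and *URA3* had 0 fragments in all 6 samples, while the *HIS3* locus, of which a remnant stays in BY4741, had 240.2 ± 38.5 FPKM in *ths1-C268A* and 94.7 ± 9.88 in WT (SD, n = 3 each). The 4 MATa genes checked (*MFA1*, *MFA2*, *STE2*, *BAR1*) ran from 73.1 to 2065 FPKM over the 6 samples. Of the MATalpha genes, *STE3* was at 6.00 FPKM or less in every sample and *MF(ALPHA)2* at 25.6 to 33.5. *MF(ALPHA)1* was low in both strains but differed between them, at 0.158 FPKM on average in *ths1-C268A* and 3.96 in WT. These means rest on 5 fragments in the *ths1-C268A* samples together and 125 in the WT samples together. *THS1* itself averaged 243 ± 38.1 FPKM in *ths1-C268A* and 169 ± 14.02 in WT, a level of mRNA that does not show the point mutation.

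All 9 members were higher in *ths1-C268A* than in WT. FPKM is the number of fragments scaled to gene length and to the total fragments of the sample. Each gene was tested by limma on log2(FPKM + 1), a scale that slightly understates the change of low genes, with Benjamini-Hochberg adjustment over 6447 genes of at least 1 FPKM on average and a threshold of 0.05. By this test 14.2% of all genes were higher and 12.1% lower in *ths1-C268A*, against 9 of 9 members higher and 0 lower. A log2 change of at least 1 was reached by 8 members, all but *ARG2*, and by 1.21% of all genes. In all 9 members the lowest *ths1-C268A* sample lay above the highest WT sample, which held for 24.5% of all genes. The members' median log2 change was 1.63, with a range of 0.59 to 2.49, and the median over all genes was -0.0025. Under a scaling that gave each sample the same total over protein-coding genes, the median of all genes moved to -0.12, and the members' median was 1.51 with all 9 still higher.

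**Figure D1:**
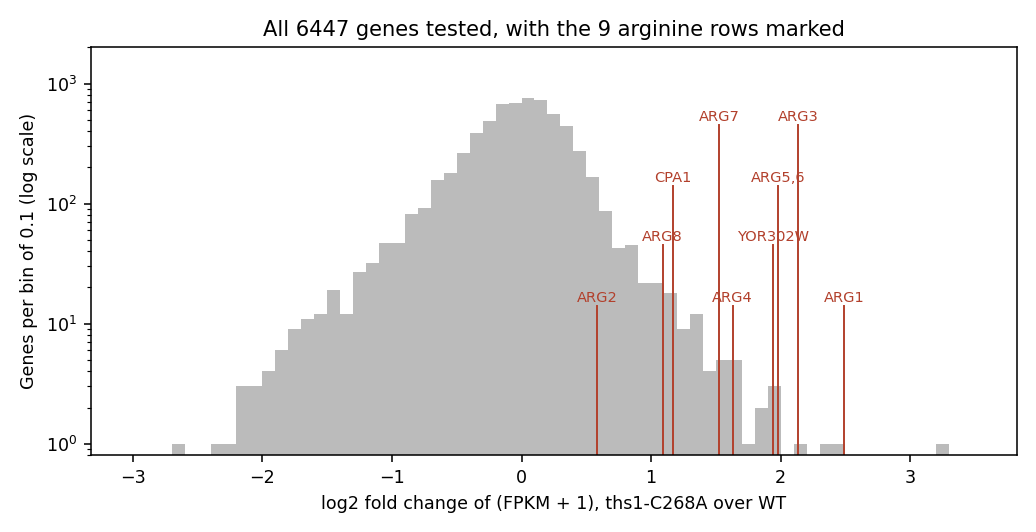
Histogram of the log2 change (*ths1-C268A* over WT, FPKM + 1) of all 6447 genes tested, with each of the 9 members marked. The members lie between 0.59 (*ARG2*) and 2.49 (*ARG1*), to the right of most genes, whose median is -0.0025.

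The mitochondrial steps changed by unlike amounts. *ARG2*, which makes acetylglutamate at the entry of the pathway (X:306132-307856), had 38.7, 50.03 and 41.9 FPKM in *ths1-C268A* samples A, B and C, against 29.1, 26.3 and 30.3 in WT samples A, B and C. It was both the lowest expressed member and the least changed, at 43.5 ± 5.85 FPKM in *ths1-C268A* and 28.5 ± 2.05 in WT (SD, n = 3 each). Its log2 change was 0.59 (SE 0.12, 95% interval 0.32 to 0.85, limma adjusted p = 0.00984). The groups did not overlap, although the gap between the lowest *ths1-C268A* sample and the highest WT sample was smaller than the spread among *ths1-C268A* samples.

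*ARG5,6* (V:295410-298001), whose product carries out the kinase and reductase steps, had 226, 338 and 228 FPKM in *ths1-C268A*, against 67.3, 67.5 and 60.7 in WT. Sample B stood above A and C in *ths1-C268A*, while the WT samples lay close together. The log2 change was 1.98 (SE 0.15, 95% interval 1.63 to 2.33, limma adjusted p = 1.99e-04), the largest of the mitochondrial group and the 5th of all genes tested. The ORF YER068C-A, on the opposite strand, shares 323 bases with *ARG5,6*, and whether counting used strand is not given in the sources used here. That ORF held only 37 fragments in the *ths1-C268A* samples together and 32 in the WT samples together, few beside those of *ARG5,6*.

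*ARG8* (XV:58759-60030), the aminotransferase of the pathway, had 93.5, 133 and 90.1 FPKM in *ths1-C268A*, against 50.05, 46.3 and 48.8 in WT. Sample B was again the highest of its strain. Its log2 change was 1.09 (SE 0.14, 95% interval 0.76 to 1.42, limma adjusted p = 0.00224).

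*ARG7* (XIII:395054-396379), the last mitochondrial step, had 243, 264 and 249 FPKM in *ths1-C268A*, against 85.4, 100.01 and 76.5 in WT. Here the *ths1-C268A* samples lay close together, with a coefficient of variation of 4.28%, and the WT samples were further apart at 13.6%. The log2 change was 1.53 (SE 0.11, 95% interval 1.28 to 1.77, limma adjusted p = 1.27e-04). Of the 4 mitochondrial genes, the order by change was thus *ARG5,6*, *ARG7*, *ARG8* and *ARG2*.

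*CPA1* (XV:882899-884134), the subunit that takes the amide nitrogen from glutamine, had 691, 742 and 655 FPKM in *ths1-C268A*, against 297, 284 and 349 in WT. It was the highest enzyme gene of the group in WT and rose 2.24-fold on the means. The log2 change was 1.17 (SE 0.11, 95% interval 0.92 to 1.41, limma adjusted p = 4.08e-04), the third smallest of the 9 members.

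YOR302W (XV:882765-882842), the leader ORF of the same mRNA, ends 56 bases before the *CPA1* ORF. It had 507, 592 and 542 FPKM in *ths1-C268A*, against 116, 151 and 162 in WT. These values rest on 858, 920 and 909 fragments in *ths1-C268A*, against 197, 258 and 257 in WT, the fewest of any member. The log2 change was 1.94 (SE 0.13, 95% interval 1.64 to 2.24, limma adjusted p = 1.27e-04). The ORF is 78 bases long, shorter than a usual sequenced fragment, so fragments can reach into *CPA1*, and how fragments over both ORFs were counted is not given in the sources used here. Its level per length is therefore not set against that of *CPA1*, and only the change between strains is compared.

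Although both ORFs lie on the same mRNA, the counted leader ORF changed more than *CPA1*. The ratio of YOR302W to *CPA1* in FPKM was 0.734, 0.798 and 0.828 in *ths1-C268A* samples, against 0.391, 0.534 and 0.463 in WT samples. The groups did not overlap, and the mean ratio was 0.786 ± 0.0482 in *ths1-C268A* and 0.462 ± 0.0715 in WT (SD, n = 3 each), a 1.71-fold difference in geometric means. An exact two-sided permutation test gave p = 0.1, the smallest value that 3 samples against 3 can reach. Over protein-coding genes the change between strains rose with coding length (Spearman rho = 0.371 across 6176 genes, which are not independent replicates). After a correction for length and GC content, the log2 change was 2.09 for YOR302W and 1.12 for *CPA1*, so the difference was 0.98 in place of 0.77. How well this correction holds for an ORF of only 78 bases was not tested.

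The cytosolic steps held the member that changed most. *ARG3* (X:268799-269815), which makes citrulline, had 235, 335 and 242 FPKM in *ths1-C268A*, against 61.7, 67.7 and 51.9 in WT. Sample B was the highest in both strains, and the log2 change was 2.13 (SE 0.15, 95% interval 1.78 to 2.48, limma adjusted p = 1.36e-04).

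*ARG1* (XV:219211-220473), which joins citrulline to aspartate, had 802, 869 and 777 FPKM in *ths1-C268A*, against 137, 166 and 131 in WT. The lowest *ths1-C268A* sample lay far above the highest WT sample. The means were 816 ± 47.4 FPKM in *ths1-C268A* and 145 ± 18.3 in WT (SD, n = 3 each), a 5.63-fold difference. The log2 change of 2.49 (SE 0.11, 95% interval 2.24 to 2.74, limma adjusted p = 2.14e-05) ranked second among all genes tested.

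*ARG4* (VIII:140011-141402), which releases arginine and fumarate, had 439, 418 and 420 FPKM in *ths1-C268A*, against 136, 148 and 128 in WT. Its *ths1-C268A* samples were the least spread of any member, with a coefficient of variation of 2.74%. The log2 change was 1.63 (SE 0.085, 95% interval 1.44 to 1.82, limma adjusted p = 4.73e-05).

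**Figure D2:**
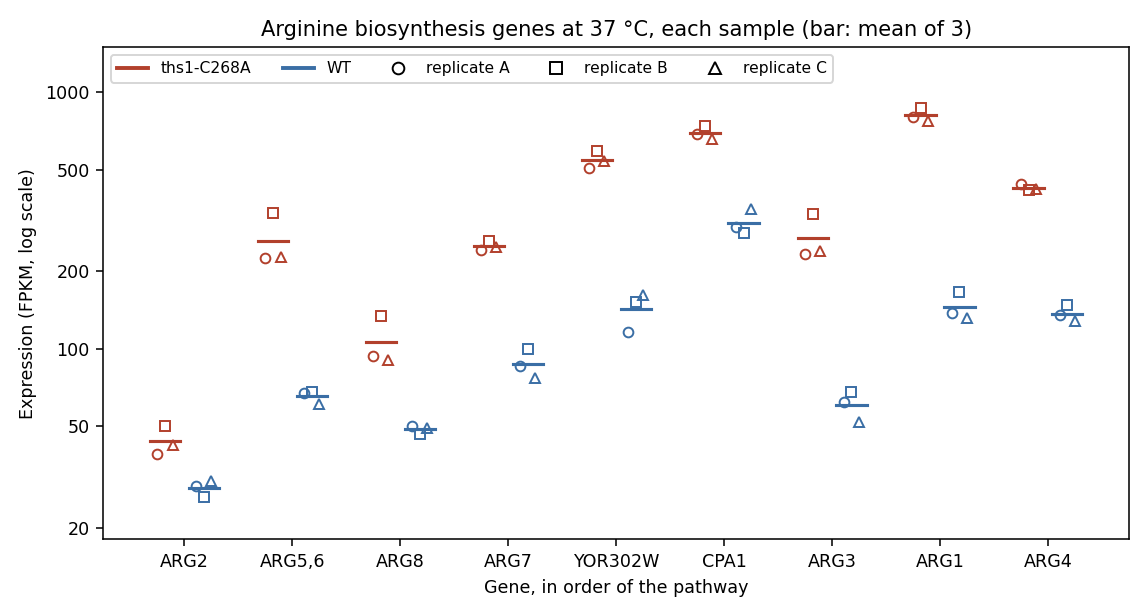
FPKM of each member in each sample on a log axis, in pathway order, with *ths1-C268A* left of WT, points for samples and bars for the mean of 3. Every *ths1-C268A* point lies above every WT point of the same gene, with the narrowest gap at *ARG2* (38.7 in *ths1-C268A*, 30.3 in WT) and a wide one at *ARG1* (777 in *ths1-C268A*, 166 in WT).

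The order of the 8 enzyme genes by level differed between the strains, YOR302W being left out for its short length. In *ths1-C268A* samples *ARG1* was the highest by mean, followed by *CPA1* and *ARG4*. *ARG3*, *ARG5,6* and *ARG7* came next with ranges that overlapped, and *ARG8* and *ARG2* were lowest. In WT samples *CPA1* was highest and stood clear of the rest, *ARG1* and *ARG4* overlapped, and *ARG7*, *ARG5,6* and *ARG3* followed, of which *ARG5,6* overlapped *ARG3*. *ARG8* and *ARG2* were again lowest. *CPA1* over *ARG1* was 0.862, 0.854 and 0.844 in *ths1-C268A* samples, against 2.17, 1.71 and 2.66 in WT samples, so these genes changed places.

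**Figure D3:**
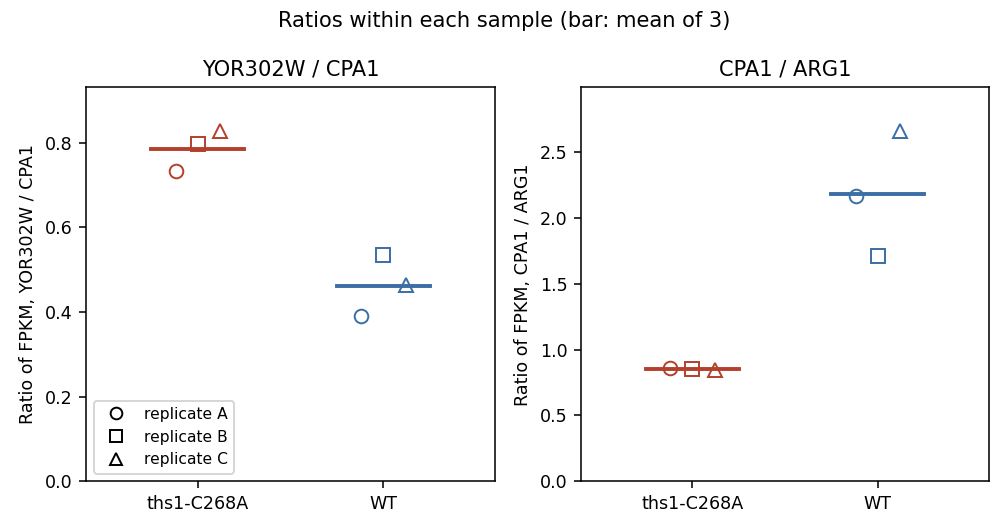
Ratio of FPKM values within each sample for YOR302W over *CPA1* and for *CPA1* over *ARG1*, with *ths1-C268A* left of WT, points for samples and bars for the mean of 3. The YOR302W to *CPA1* ratio averages 0.786 in *ths1-C268A* and 0.462 in WT, and the *CPA1* to *ARG1* ratio 0.853 in *ths1-C268A* and 2.18 in WT.

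How unlike the members' changes were was measured by the ratio of each other member to *ARG1* within a sample, which does not depend on how libraries were scaled. *ARG1* was chosen as the member with the largest change, so the negative sign is fixed by that choice and the sizes are given as a description, with no test. The log2 difference of the ratio between strains was -1.90 for *ARG2*, -1.40 for *ARG8*, -1.33 for *CPA1*, -0.96 for *ARG7* and -0.86 for *ARG4*. It was smaller for YOR302W at -0.55, for *ARG5,6* at -0.51 and for *ARG3* at -0.35.

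The members also differed in their spread among *ths1-C268A* samples. Sample B was the highest *ths1-C268A* sample for 8 of 9 members, *ARG4* being the exception. The share of all genes that were highest in sample B was not counted, so this is not shown to be particular to the members. The log2 excess of sample B over the mean of A and C was 0.57 for *ARG5,6*, 0.54 for *ARG8*, 0.49 for *ARG3* and 0.31 for *ARG2*. It was much smaller for the other 5 members, from 0.17 for YOR302W to -0.04 for *ARG4*. Sample B thus held the highest value for members of both compartments, and the 4 members with the larger excess included the second and the third most changed gene (*ARG3*, *ARG5,6*) as well as the 2 least changed (*ARG8*, *ARG2*). Outside the members, *GDH1*, which encodes the main glutamate dehydrogenase, had an excess of 0.58 and *GLN1*, the glutamine synthetase gene, of 0.35. The excess was 0.37 for *THS1*, while *ARG80* and *BAR1* were lower in sample B, at -0.34 and -0.37. Without sample B all 9 members were still higher in *ths1-C268A*, with a median log2 change of 1.64.

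In WT the variation had another shape. *ARG1*, *ARG3*, *ARG4*, *ARG5,6* and *ARG7* were highest in sample B and lowest in sample C, whereas *CPA1*, YOR302W and *ARG2* were highest in C. The deviation from the WT mean in sample C was 0.18 for *CPA1* and 0.19 for YOR302W on the log2 scale, against -0.21 for *ARG3*, -0.18 for *ARG7* and -0.13 for *ARG1*. In the other WT samples the 2 ORFs of the *CPA1* mRNA were less alike, at 0.10 for YOR302W and -0.12 for *CPA1* in sample B and -0.28 for YOR302W and -0.05 for *CPA1* in sample A. These are differences between single samples, with no test.

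**Figure D4:**
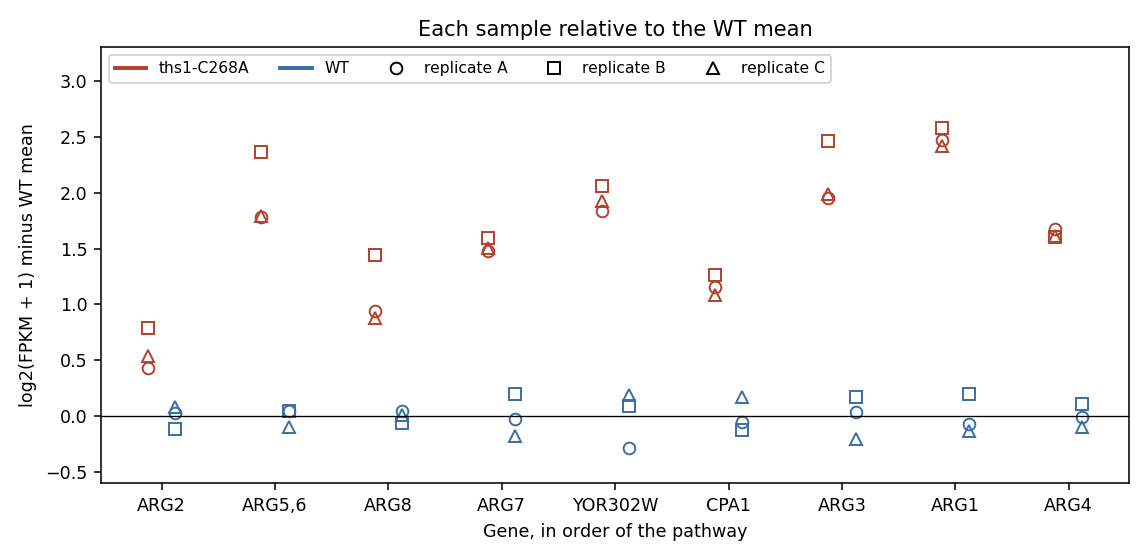
Deviation of each member from its WT mean in each sample, in log2(FPKM + 1), with *ths1-C268A* samples left of WT samples. The mean over the 9 members is 1.52, 1.80 and 1.53 in *ths1-C268A* samples A, B and C and -0.03, 0.06 and -0.03 in WT samples A, B and C.

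Each gene beside a member had a log2 change smaller in size than that of the member. The nearest protein-coding gene on each side, without the overlapping ORF YER068C-A, gave 16 distinct genes other than the members. Of these 16 genes, 3 were higher in *ths1-C268A*, 1 was lower, and for 12 the adjusted p was above the threshold. Among all genes tested, 14.2% were higher and 12.1% lower, so counts of this size are not particular to neighbours of the members. The median log2 change of the 16 neighbours was 0.10, with a range of -0.76 to 0.61. *RAX1*, a gene 492 bases before YOR302W, had 41.8, 38.2 and 43.2 FPKM in *ths1-C268A*, against 41.5, 42.9 and 43.2 in WT. *ISW2*, which encodes a chromatin remodeler on the other side of *CPA1*, had a log2 change of 0.06 (limma adjusted p = 0.584). Around *CPA1* the change was thus seen in the 2 ORFs of that mRNA.

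*ARG2* was the member for which the neighbours came nearest to its own change. *PSF2*, a gene of the GINS replication complex that lies 269 bases to its left, had a log2 change of 0.39 (limma adjusted p = 0.0201). YJL070C, 114 bases to its right, had 0.47 (limma adjusted p = 0.0175), against 0.59 for *ARG2* itself. The 95% intervals of the 3 genes overlap, and the difference between them was not tested. *DED81*, the asparaginyl-tRNA synthetase gene 491 bases from *ARG4*, rose by 0.61 (limma adjusted p = 0.0101), against 1.63 for *ARG4*. *RNR1*, the gene for the large subunit of ribonucleotide reductase next to *ARG5,6*, fell, with a log2 change of -0.76 (limma adjusted p = 0.00495).

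**Figure D5:**
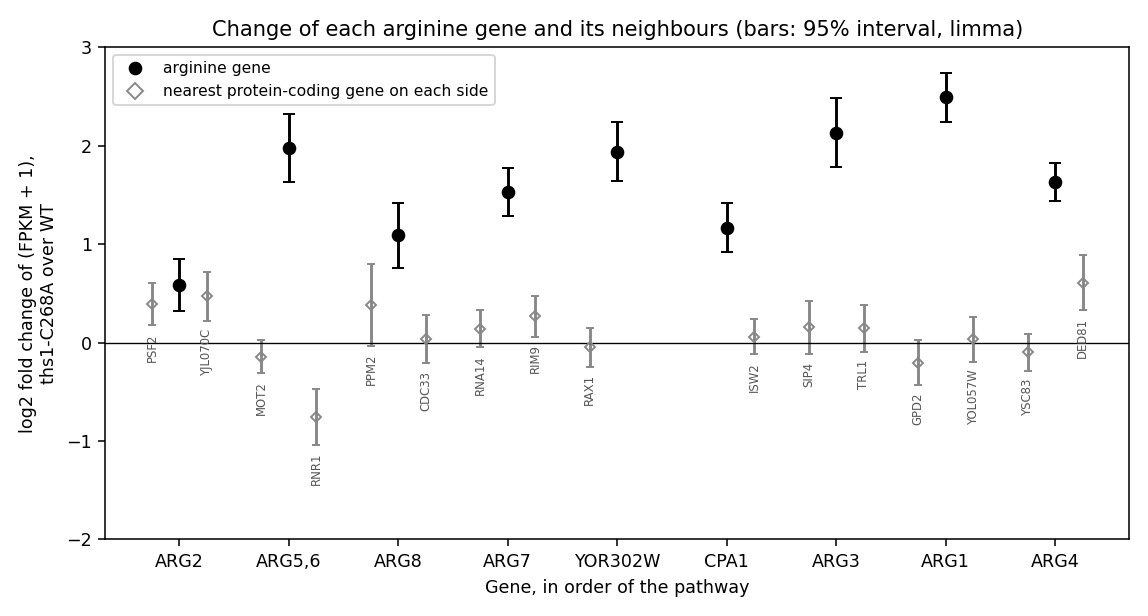
Log2 change (*ths1-C268A* over WT) with its 95% interval for each member and for the nearest protein-coding gene on each side, the overlapping ORF YER068C-A not being drawn. The members lie from 0.59 to 2.49 and the neighbours from -0.76 to 0.61.

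The other genes of arginine metabolism and its control did not all share the members' direction. Of 23 such genes, 8 were higher in *ths1-C268A* and 3 were lower, while 12 stayed above the threshold of the adjusted p. Of all genes tested, 14.2% were higher and 12.1% lower. The list's share of higher genes was thus above that of all genes, and its share of lower genes was near it. The count of higher genes was 5 without any 1 of the WT samples. The count of lower genes was 1 without *ths1-C268A* sample B or any 1 of the WT samples, and 2 without *ths1-C268A* sample C. The median log2 change of the list was 0.10. A log2 change of at least 1 was reached by *GDH1* and *PUT1*. Of the genes that supply nitrogen, *GDH1* had 692, 1027 and 685 FPKM in *ths1-C268A*, against 393, 357 and 354 in WT (log2 change 1.10, limma adjusted p = 0.00327). *GLN1* averaged 1003 ± 155 FPKM in *ths1-C268A* and 501 ± 11.8 in WT (SD, n = 3 each), a log2 change of 0.99 (limma adjusted p = 0.00178). *GLT1*, the glutamate synthase gene, rose by 0.44 (limma adjusted p = 0.0106). With the length and GC correction its log2 change was 0.23 (limma adjusted p = 0.0448), and the call was lost when a replicate block was added (0.0766). *GDH3*, a second NADP-dependent glutamate dehydrogenase gene, did not pass (log2 change -0.07, limma adjusted p = 0.673).

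The carriers between mitochondria and cytosol had values close to WT. *ORT1*, the ornithine carrier that links the mitochondrial members to *ARG3*, had 40.4, 36.5 and 30.7 FPKM in *ths1-C268A*, against 29.7, 33.6 and 33.9 in WT. The strains overlapped, and the 95% interval of its log2 change ran from -0.13 to 0.41 (limma adjusted p = 0.411), below the interval of every member that changed by at least 1. *AGC1*, the aspartate/glutamate carrier, had a log2 change of -0.02 (limma adjusted p = 0.896).

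Among the regulators, *GCN4* averaged 967 ± 126 FPKM in *ths1-C268A* and 707 ± 25.7 in WT (SD, n = 3 each), a log2 change of 0.44 (limma adjusted p = 0.0291). Gcn4 protein is controlled mainly through translation, which these data do not measure, and the call was lost without any 1 of the WT samples (limma adjusted p from 0.0759 to 0.119), without *ths1-C268A* sample B (0.0624) or C (0.0524), and with equal totals (0.0616). *ARG81*, the arginine sensor of the ArgR/Mcm1 complex, averaged 61.0 ± 9.65 FPKM in *ths1-C268A* and 43.5 ± 0.525 in WT (SD, n = 3 each), a log2 change of 0.47 (limma adjusted p = 0.0208). *ARG82*, an inositol polyphosphate kinase gene, had a log2 change of -0.35 (limma adjusted p = 0.0329). Leaving out any 1 WT sample brought the limma adjusted p to 0.0637 to 0.0740 for *ARG81* and 0.0592 to 0.139 for *ARG82*. The *ARG81* call was also lost with the length and GC correction (log2 change 0.28, limma adjusted p = 0.0503). The *ARG82* call was also lost without *ths1-C268A* sample B (0.0782) and with a replicate block (0.0675). *ARG80* and *MCM1* did not pass, with log2 changes of -0.02 (limma adjusted p = 0.899) and 0.05 (limma adjusted p = 0.624).

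Genes of arginine breakdown moved the other way from the members. *CAR1*, which encodes arginase, had 245, 207 and 237 FPKM in *ths1-C268A*, against 345, 335 and 408 in WT. The groups did not overlap, and the log2 change was -0.66 (limma adjusted p = 0.0052). *CAR2*, the ornithine aminotransferase gene, averaged 242 ± 33.6 FPKM in *ths1-C268A* and 330 ± 32.9 in WT (SD, n = 3 each), with a log2 change of -0.45 (limma adjusted p = 0.0299). That call was lost without any 1 of the WT samples (limma adjusted p from 0.0609 to 0.104) and without *ths1-C268A* sample B (0.0790) or C (0.0659), and without the trend (0.0525).

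The proline genes that follow arginine breakdown did not share that direction. *PUT1*, which encodes proline oxidase, averaged 157 ± 14.4 FPKM in *ths1-C268A* and 66.3 ± 7.29 in WT (SD, n = 3 each), with a log2 change of 1.23 (limma adjusted p = 3.61e-04). *PUT2*, the gene of the next enzyme, had 0.29 (limma adjusted p = 0.0278), which was lost without any 1 of the WT samples (limma adjusted p from 0.0636 to 0.133), without *ths1-C268A* sample B (0.0598) and with a replicate block (0.0690). Its log2 change was 0.17 with equal totals (limma adjusted p = 0.119), 0.18 with limma-voom (0.1195) and 0.19 with the length and GC correction (0.101). *PRO3*, *PUT3* and *SPE1*, the ornithine decarboxylase gene, did not pass, with log2 changes of -0.11, 0.09 and 0.25. Of the permeases for basic amino acids, *CAN1* rose by 0.42 (limma adjusted p = 0.00693) and *ALP1* did not pass (log2 change -0.01).

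The genes of nonsense-mediated decay, the pathway known to act on the *CPA1* mRNA, were examined beside YOR302W and *CPA1*. *NAM7*, which encodes Upf1, had a log2 change of 0.25 (limma adjusted p = 0.0925), *NMD2*, the Upf2 gene, 0.10 (limma adjusted p = 0.446) and *UPF3* -0.05 (limma adjusted p = 0.633). None of the 3 passed the test. Their mRNA levels do not measure decay of the *CPA1* mRNA, and a part of decay in the rise of its ORFs was not tested.

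The Gcn4 site was counted before these 23 genes in the same way. The 7-base site stood before 5 of them and the 6-base core before 9, against 4% and 12.65% of all windows. The 5 were *CAN1* (log2 change 0.42), *CAR1* (-0.66), *ORT1* (0.14), *PRO3* (-0.11) and *PUT3* (0.09). *PUT1*, *GDH1* and *GLN1*, the genes of the list with the largest rise, had no 7-base site, and *GDH1* and *GLN1* had the 6-base core. The difference from the members or from all windows was not tested.

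Outside the members, the genes whose deviations from the WT mean lay nearest to the members' mean were *LYS1*, *LEU4*, *HOM2* and *BAT1*. Nearness was the root mean square difference in log2(FPKM + 1) over the 6 samples, which was 0.0653 for *LYS1*, 0.0916 for *LEU4*, 0.109 for *HOM2* and 0.141 for *BAT1*. *LYS1* deviated by 1.48, 1.74 and 1.50 in *ths1-C268A* samples A, B and C, against 1.52, 1.80 and 1.53 for the mean of the members. *LYS1* was picked for this likeness, which is therefore a description.

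Because the mutation affects an enzyme that charges threonine tRNA, the members' residue composition was read from the R64 coding sequences. Threonine made up 8.39% of the residues of Arg7, 6.91% of Arg4, 6.43% of Arg1, 6.33% of Cpa1, 6.15% of Arg8, 5.62% of Arg3, 4.87% of Arg5,6 and 4.18% of Arg2, against a median of 5.60% over 5672 proteins of at least 100 residues. Arg1, the product of the most changed gene, was thus near the middle of this range, and Arg2, from the least changed gene, had the lowest share. The arginine attenuator peptide of YOR302W has 25 residues, of which 2 are threonine and 0 are arginine. These are features of the encoded proteins and say nothing of how they were translated in these cells.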

How the data were processed

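Total RNA of 3 *ths1-C268A* and 3 WT samples was sequenced on an Illumina instrument by a commercial provider, and the processing notes of the submitters name HISAT2. The sources used here give neither its version nor the counting tool, the annotation or the use of strand. The deposited table holds FPKM per gene, computed by the authors from fragment counts. FPKM times gene length fell on whole fragments for 100% of values (tolerance 0.01 fragments), so depth could be recovered. The members and gene lists were chosen with earlier results of these data known.

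log2(FPKM + 1) was fitted with limma 3.58.1 in R 4.3.3 (strain as the only term, trend of variance on mean, all 6 samples), with Benjamini-Hochberg adjustment over the 6447 genes that averaged 1 FPKM or more. The study's methods name no test for the transcriptome. The fit was tested on simulated fragments with known changes. These had the same dispersion for every gene and no trend with length, so the test does not cover such features of the real samples. No 2 samples of the same strain agreed within counting noise. The YOR302W to *CPA1* ratio was compared by an exact two-sided permutation test. The fit was repeated with a pseudocount of 0.1 or 5, without the filter, with a minimum of 10 FPKM, with median-ratio and equal-total scaling, without the trend, with limma-voom on recovered fragments, with a replicate block and a loess correction for length and GC content (span 0.5), with each sample left out, and with an adjusted p under 0.01 and a log2 change of at least 1. Genes named are the members, the listed genes of arginine metabolism, the flanking and overlapping genes, and the 4 genes of most similar deviation. A gene that these rules would also name is not reported here. Of the 7122 genes, 6045 had a RefSeq tag and 6033 of these the same coordinates in R64. Upstream windows and residue shares were taken from the R64 genome and its annotation, since tables of promoters and proteins were not used here.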

Additional observations from a re-analysis of the deposited data

How the results depend on the processing

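All 9 members were higher under 18 of 19 alternatives, and 8 under a required log2 change of at least 1, which *ARG2* missed (0.59). Of 171 results for a member under an alternative, 170 kept direction and call, and the members' median log2 change stayed between 1.51 and 1.68. The highest limma adjusted p of a member with a sample left out was 0.0492, for *ARG2* without WT replicate B. The list of 23 other arginine genes gave 4 higher and 1 lower at an adjusted p under 0.01, where all 6447 genes gave 296 and 248. With a log2 change of at least 1 it gave 2 higher and 0 lower, where all genes gave 78 and 134. With the length and GC correction and a replicate block, 5 genes of the list were higher. With a sample left out, the counts of the list ran from 5 to 10 higher and from 1 to 3 lower. The log2 difference of the YOR302W to *CPA1* ratio ran from 0.66 to 0.89 with a sample left out. With a replicate block 9 members were higher. Samples of the same letter deviated with correlations of -0.23, 0.06 and -0.01, and samples of unlike letters with correlations from -0.205 to 0.209. With 3 samples a strain, these values cannot show whether cultures of the same letter were handled together. With samples paired by letter, an exact sign-flip test of the ratio (0.78) gave p = 0.25, the smallest for 3 pairs. Over all genes the counts moved with the setting, from 916 higher and 783 lower to 524 and 1285 with equal totals, 613 and 1387 with limma-voom, 456 and 394 without WT replicate A, 356 and 290 without B, and 414 and 377 without C. The least covered member, YOR302W, had at least 197 fragments in every sample. With 3 samples a strain, the design limits the exact tests to p = 0.1.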
